A study of Mus musculus with 4 samples.

Results

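Aminoacyl-tRNA synthetases were followed in cultured liver parenchymal cells of the mouse (primary hepatocytes), given non-essential amino acids (NEAA) or left as control, with 2 samples in each group. The enzymes were chosen by symbol from a list of 37 genes, of which 34 had at least 1 row in the deposited tables, with 112 of the 37363 rows and 34 of the 19284 gene identifiers. Mars2, Pars2 and Rars2, all mitochondrial, had no row, so no expression value is given for them. Of the 34 genes, 21 code for cytosolic and 13 for mitochondrial enzymes. The dose, duration and composition of the NEAA treatment, and the strain, sex and age of the mice, are not stated in the labels, nor is it said whether the samples were separate cultures or animals. The p-values below therefore reflect no more than the differences among these 4 libraries, and those may be technical. Values are FPKM (fragments per kilobase of transcript, scaled to the mapped fragments of the library), a unit that scales for length but keeps no depth, so the number of reads behind a value is unknown.

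Each synthetase joins an amino acid to the tRNAs that read its codons, and so supplies the ribosome. Cytosolic and mitochondrial translation mostly use separate nuclear genes, written without and with a final 2. Exceptions are Gars and Kars, whose single genes give both forms. The protein of Eprs, a cytosolic enzyme, charges tRNAs with glutamate and with proline. When an amino acid runs short, uncharged tRNA activates the kinase GCN2, and the transcription factor ATF4 is made; in mammalian cells ATF4 raises the mRNA of many cytosolic synthetases together with that of amino acid importers and serine enzymes. The usual commercial NEAA mixture holds alanine, asparagine, aspartate, glutamate, glycine, proline and serine. Enzymes for these amino acids are called the NEAA class here, and the others the other class.

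The rows of these genes are not their mRNA levels. In 33 of the 34 genes the number of rows equalled the number of transcripts that GENCODE M21 annotates as retaining an intron, the exception being Fars2 with 3 rows and 2 such transcripts. The same match held for 8991 of the 9265 protein-coding identifiers, so it is not particular to the synthetases. Identifiers of other types were not checked. The files name a row by its gene only, so which transcript a row stands for cannot be told where a gene has several. In 10 genes there was 1 row and 1 retained-intron transcript. Among these, Sars, Farsb, Dars and Iars2 reached the level tested below, and the points where their annotated transcripts run on from an exon into the intron are shown, because crossing them sets such a transcript apart from the spliced mRNA. Each sequence is the transcript's own strand (minus, GRCm38), 5′ to 3′, with 10 exon bases, then the intron with its first bases, the donor GT, in capitals.
Sars-205, chr3:108435866-108435895: cgcgctagctGTaggtttctctcctcttct
Farsb-207, chr1:78478173-78478202: cacagaagagGTaatgagtaggctctgact
Dars-203, chr1:128376158-128376187: attggaccagGTaagatattgtcatttata
Iars2-205, chr1:185323647-185323676: gtatgagaagGTaacaggataatctccttc
The Iars2 transcript holds 4 whole introns of the coding transcripts, and its first donor is shown; the transcripts of Sars, Farsb and Dars hold 0 introns whole. The Dars transcript also crosses the acceptor of an earlier exon, upstream of the exon shown, and that acceptor is not printed.

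With NEAA, the RNA of 7 cytosolic synthetase genes fell, to between 39.9% and 50.4% of the control mean, when all rows of a gene were summed. The 7 were those for leucine (Lars), asparagine (Nars), glutamate and proline (Eprs), serine (Sars), alanine (Aars), arginine (Rars) and tyrosine (Yars). They were 7 of the 26 synthetase genes with a mean sum of at least 1 FPKM, the level needed for a test, whereas 4.11% of all 4700 gene sums tested were called lower (limma, Benjamini-Hochberg adjusted p under 0.05 over all gene sums). Taken singly, 0 of 51 tested rows passed, as described after the gene sums. Of the 26 sums, 0 were called higher, against 6.00% of all gene sums, and 13 were lower and 2 higher at an unadjusted p under 0.05, against 16.3% and 14.4% of all gene sums. Of the 2 higher, Fars2 passed the level filter only through the NEAA samples. Summed over all rows, the cytosolic group measured 124 ± 5.83 FPKM in NEAA samples and 184 ± 4.96 in control samples, while the mitochondrial group measured 29.9 ± 1.19 and 29.1 ± 0.343 FPKM in NEAA and control (SD, n = 2 each).

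**Figure D1:**
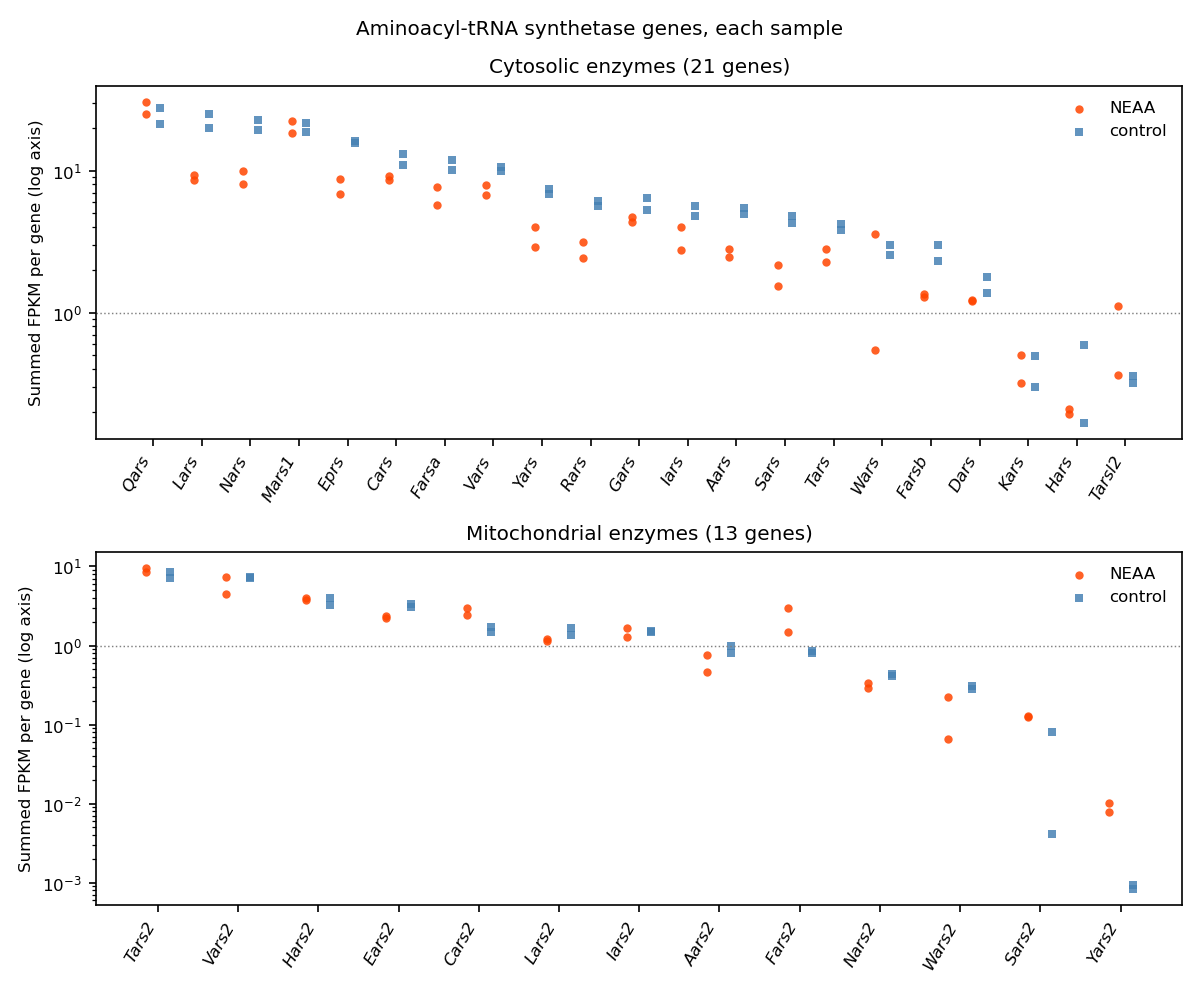
Summed FPKM per gene (log axis) in every sample for the 21 cytosolic and 13 mitochondrial synthetase genes, with NEAA samples as circles and control samples as squares; the dotted line marks 1 FPKM. Both NEAA samples lie below both control samples for all 7 called genes, while the groups of Qars and Mars1 overlap.

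Among the 7, Lars (chromosome 18, 42202298 to 42262194, GRCm38, minus strand), the leucine enzyme of the cytosolic multi-synthetase complex, had sums of 8.59 and 9.40 FPKM in NEAA samples against 24.98 and 20.15 in control samples. Both NEAA samples lay far below both controls, and the log2 difference was -1.23 (SE 0.16, limma adjusted p = 0.0234), the most negative of the 26. All log2 differences are taken after adding 1 FPKM, so those of low genes come out too small. All 4 Lars rows had NEAA samples below control samples, the highest row at 3.66 and 4.53 FPKM in NEAA against 14.1 and 9.79 in control. Nars (chromosome 18, 64499647 to 64516652, minus strand), which charges asparagine, had sums of 9.91 and 8.07 FPKM in NEAA against 22.6 and 19.4 in control, a log2 difference of -1.14 (SE 0.17, limma adjusted p = 0.0297). Its rows did not all move together: in 3 of 5 the NEAA samples were lower, and in the 2 lowest rows the groups overlapped, with 0.338 and 1.24 FPKM in NEAA against 0.452 and 0.621 in control in the higher of them.

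Eprs (chromosome 1, 185363044 to 185428360, plus strand), the bifunctional enzyme of the complex, had sums of 6.82 and 8.70 FPKM in NEAA samples against 16.2 and 15.6 in control samples. Its log2 difference was -0.96 (SE 0.16, limma adjusted p = 0.0385), and 5 of its 6 rows had NEAA samples below control samples, so the lower sum did not rest on a single row. Sars (chromosome 3, 108424865 to 108445209, minus strand), the serine enzyme whose junction is printed above, has a single row, at 1.55 and 2.17 FPKM in NEAA against 4.76 and 4.28 in control. Its log2 difference was also -0.96 (SE 0.16, limma adjusted p = 0.0390). Aars (chromosome 8, 111033144 to 111057664, plus strand), the alanine enzyme, had sums of 2.81 and 2.45 FPKM in NEAA against 4.98 and 5.45 in control, with a log2 difference of -0.78 (SE 0.13, limma adjusted p = 0.0392). In all 5 Aars rows both NEAA samples were below both controls, but 4 of these rows were under the level filter.

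Rars (chromosome 11, 35808381 to 35834506, minus strand), the arginine enzyme of the complex, had sums of 2.41 and 3.13 FPKM in NEAA samples against 6.16 and 5.67 in control samples, and both of its rows separated the groups. The log2 difference was -0.88 (SE 0.15, limma adjusted p = 0.0400). Yars (chromosome 4, 129189760 to 129219607, plus strand), which charges tyrosine, had sums of 2.90 and 4.02 FPKM in NEAA against 7.39 and 6.90 in control, a log2 difference of -0.88 (SE 0.17) close to the threshold (limma adjusted p = 0.0485). Its highest row measured 0.708 and 1.04 FPKM in NEAA against 3.26 and 2.84 in control. That row passed the level filter only through the control samples, so a lower value in NEAA was built into it. Over the 7 genes, 23 of 27 rows had both NEAA samples below both control samples, beside 36.0% of all rows tested. Of the 27 rows only 19 were tested, so the count and the share do not cover like rows. The genes were also picked by the sums of these rows, so the count is a description only.

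Leaving out any 1 library ended the calls. The number of the 7 still called was 0 without control 1, 0 without control 2, 0 without NEAA 1 and 0 without NEAA 2, where the number called among all gene sums was 0, 0, 7 and 88. In these fits, which assume that the lone sample left in a group varies like the other group, the 7 log2 differences stayed negative, from -1.38 to -0.70, with limma adjusted p from 0.0605 to 0.176.

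Row by row, limma called 0 of the 51 synthetase rows with a mean of at least 1 FPKM, which belonged to 24 genes, against 2.90% of all 6064 rows tested, 0.956% lower and 1.95% higher. Without the mean trend in limma's variance, 1 row, of Lars, was called. At an unadjusted p under 0.05, 23 of the 51 rows were lower and 0 were higher, where the share of all rows was 15.3% lower and 10.6% higher. Of the 23, 6 passed the level filter only through the control samples, where they were high, so a lower value in NEAA was built into those. The smallest adjusted p was that of a Nars row, at 1.38 and 1.35 FPKM in NEAA against 3.76 and 3.31 in control (log2 difference -0.94, SE 0.12, limma adjusted p = 0.0501). Rows of Yars, Lars, Rars and Eprs followed, with limma adjusted p of 0.0518, 0.0533, 0.0556 and 0.0563. The Yars row is among the 6 that passed the filter only through the control samples. The median log2 difference of the 51 rows was -0.38, beside -0.09 for all rows tested, and 43 of 51 were negative where 58.9% of all rows were. Both NEAA samples lay below both control samples in 34 of the 51, against 36.0% of all rows. The 51 rows behind this median and these counts include 9 that passed the filter only through the control samples. The number that passed only through the NEAA samples was 0. A lower value in NEAA was built into the 9. The other 61 rows were under the filter. Of them, Vars rows at means of 0.996 and 0.851 FPKM and a Vars2 row at 0.904 lay just outside it, and rows of Vars2, Iars and Hars2 at 1.01, 1.06 and 1.08 just inside. Over all 112 rows, 80 had a lower mean in NEAA.

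**Figure D2:**
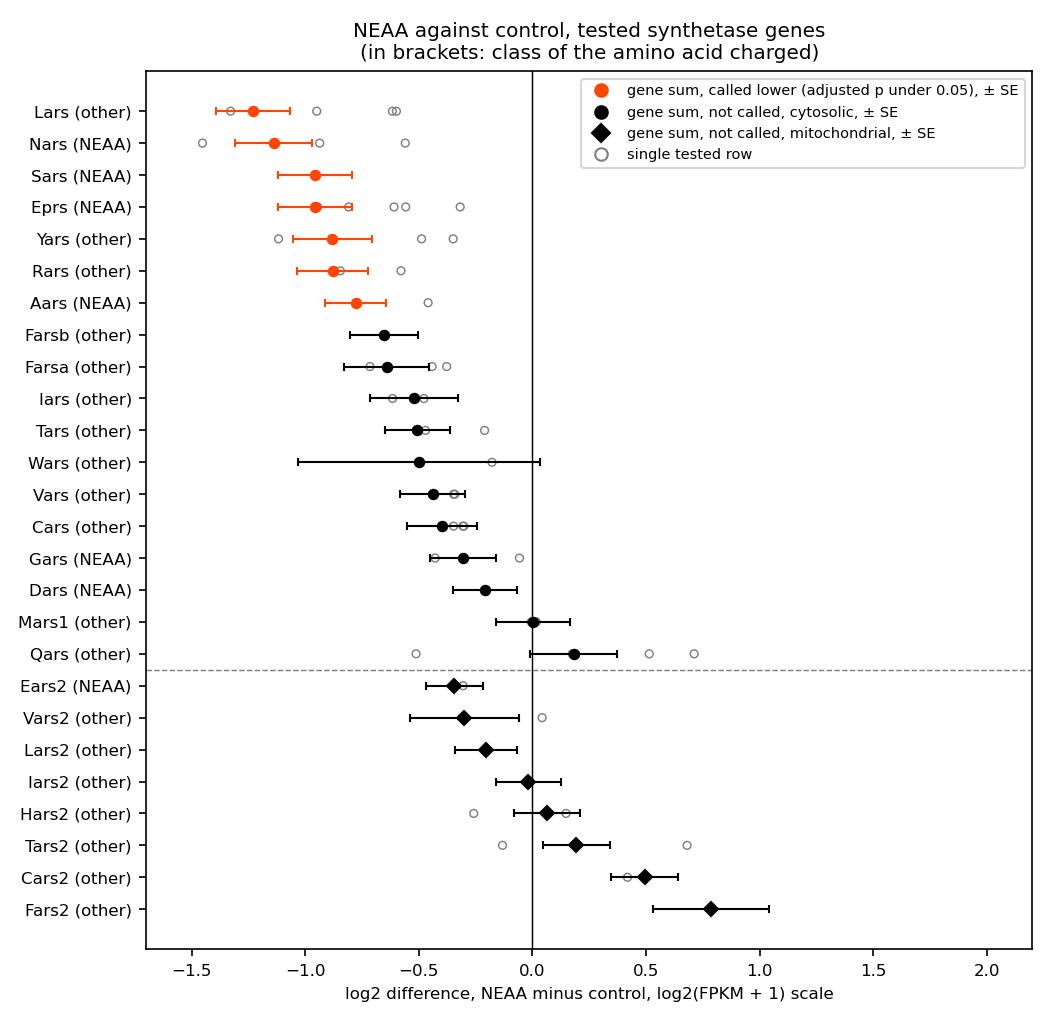
Log2 difference, NEAA minus control, of the 26 tested gene sums with their standard errors, and of each tested row as open circles; cytosolic genes stand above the dashed line and mitochondrial genes under it. The 7 called genes lie between -1.23 and -0.78, and the 8 mitochondrial genes between -0.34 and 0.78.

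The other cytosolic enzymes did not pass, though most had lower values with NEAA. Of the 18 tested cytosolic gene sums, 16 had a negative log2 difference, as had 55.1% of all gene sums, with a median of -0.58 beside -0.06 for all gene sums, and in 15 both NEAA samples were below both control samples, as in 34.4% of all gene sums. Both subunits of the phenylalanine enzyme were near each other: Farsb had 1.35 and 1.30 FPKM in NEAA samples against 3.02 and 2.32 in control samples (log2 difference -0.65, limma adjusted p = 0.0647). Farsa had 5.72 and 7.72 FPKM in NEAA against 10.1 and 11.8 in control (log2 difference -0.64, limma adjusted p = 0.102). Neither subunit's groups overlapped. Tars, for threonine, had 2.29 and 2.81 FPKM in NEAA and 3.85 and 4.22 in control (limma adjusted p = 0.0966). Vars, for valine, had 6.73 and 7.89 FPKM in NEAA and 10.6 and 9.90 in control (limma adjusted p = 0.125), and Iars, for isoleucine, 4.02 and 2.75 FPKM in NEAA and 5.65 and 4.83 in control (limma adjusted p = 0.158).

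Cars, the cysteine enzyme, had 9.20 and 8.55 FPKM in NEAA samples against 13.2 and 10.9 in control samples, a log2 difference of -0.40 (limma adjusted p = 0.166). The enzymes for glycine and aspartate, both in the NEAA class, had smaller differences than the 4 called members of that class. Gars had 4.71 and 4.38 FPKM in NEAA against 5.33 and 6.42 in control (log2 difference -0.30, limma adjusted p = 0.238). Dars had 1.21 and 1.22 FPKM in NEAA against 1.77 and 1.37 in control (log2 difference -0.21, limma adjusted p = 0.374). In these 3 genes the groups did not overlap, but the controls came close to the NEAA samples.

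Wars, for tryptophan, was split by library, with 0.546 and 3.58 FPKM in NEAA samples against 2.56 and 2.98 in control samples. The split lay in its higher row, at 0.270 and 3.29 FPKM in the NEAA samples, while its lower row measured 0.276 and 0.294 FPKM in NEAA against 1.07 and 1.17 in control. Mars1, for methionine, and Qars, for glutamine, were the cytosolic genes with positive log2 differences among those tested, Mars1 turning to -0.01 under median centring, and both are subunits of the multi-synthetase complex. Mars1 had 22.3 and 18.5 FPKM in NEAA samples against 21.8 and 18.9 in control samples (log2 difference 0.0024, SE 0.16, limma adjusted p = 0.993), with most of it in 1 of 3 rows, at 20.1 and 16.8 FPKM in NEAA against 20.2 and 16.8 in control. Qars had 25.2 and 30.5 FPKM in NEAA against 21.4 and 27.7 in control (log2 difference 0.18, SE 0.19, limma adjusted p = 0.561). Its 12 rows went both ways, with 3.130 and 3.399 FPKM in NEAA against 5.996 and 4.284 in control in the row next after its second-highest. In its second row the values were 7.41 and 6.54 FPKM in NEAA against 2.24 and 6.29 in control, where control 1 stood low. On the FPKM scale these were the highest gene sums of the family in NEAA samples, Qars first and Mars1 next.

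The multi-synthetase complex thus held genes at both ends of the range. Of its 8 enzymes (Dars, Eprs, Iars, Kars, Lars, Mars1, Qars and Rars), 7 were tested and 3 fell, and the median log2 difference was -0.52. Of the 11 tested cytosolic genes outside the complex 4 fell, with a median of -0.64. Of all gene sums 4.11% were called lower, with a median of -0.06. Kars had 0.321 and 0.504 FPKM in NEAA samples against 0.301 and 0.496 in control samples, Hars 0.194 and 0.208 against 0.167 and 0.587, and Tarsl2, a second cytosolic threonine enzyme, 1.12 and 0.363 against 0.356 and 0.322. These 3 were under the level filter, and the difference between the 2 sets was not tested.

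Mitochondrial enzymes showed no common direction. Of 8 tested gene sums 0 were called, 4 had a positive and 4 a negative log2 difference (Iars2 turning to 0.04 when libraries were rescaled to the same sum), and the median was 0.02. At an unadjusted p under 0.05 there were 2 higher and 1 lower of 8, where all gene sums gave 14.4% higher and 16.3% lower. Of the 2 higher, Fars2 passed the level filter only through the NEAA samples, so a higher value was built into it. Cars2, the mitochondrial cysteine enzyme, had 2.97 and 2.40 FPKM in NEAA samples against 1.722 and 1.501 in control samples (log2 difference 0.49, SE 0.15, limma adjusted p = 0.105), and all 3 of its rows had NEAA samples above control samples. Ears2, the glutamate enzyme, had 2.38 and 2.24 FPKM in NEAA against 3.32 and 3.08 in control (log2 difference -0.34, SE 0.12, limma adjusted p = 0.149). Neither had overlapping groups, and they lay on opposite sides of 0.

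Fars2, for phenylalanine, had 1.49 and 3.01 FPKM in NEAA samples against 0.808 and 0.860 in control samples (log2 difference 0.78, SE 0.26, limma adjusted p = 0.125), and passed the level filter only through the NEAA samples. The difference lay in 1 row, at 0.609 and 2.61 FPKM in NEAA against 0.0343 and 0.0630 in control, and the other Fars2 rows overlapped. An antisense gene on the opposite strand, Gm48765, covers 11.9% of Fars2, and no label says whether counting used the strand, so reads of the pair cannot be told apart. The same holds for Vars2 and the antisense gene Gm20483, which covers 39.6% of it. Vars2, for valine, had 7.35 and 4.42 FPKM in NEAA against 7.21 and 7.34 in control, with NEAA 2 below the others. Tars2, the highest mitochondrial gene, had 8.61 and 9.54 FPKM in NEAA and 7.16 and 8.49 in control, without passing (limma adjusted p = 0.426). Hars2 had 3.96 and 3.76 FPKM in NEAA and 4.04 and 3.29 in control, and Iars2 1.69 and 1.28 in NEAA and 1.52 and 1.49 in control, both with overlapping groups. Lars2 had 1.22 and 1.15 FPKM in NEAA and 1.36 and 1.68 in control (limma adjusted p = 0.366).

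Of the mitochondrial genes under the filter, Aars2 had 0.465 and 0.766 FPKM in NEAA samples against 0.974 and 0.812 in control samples, and Nars2 0.293 and 0.333 against 0.410 and 0.438. Wars2 had 0.224 and 0.0658 FPKM in NEAA against 0.312 and 0.278 in control. Sars2 had 0.127 and 0.125 FPKM in NEAA against 0.00418 and 0.0816 in control, and Yars2 0.0101 and 0.00776 in NEAA against 0.000835 and 0.000945 in control. No difference is read from values this low.

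**Figure D3:**
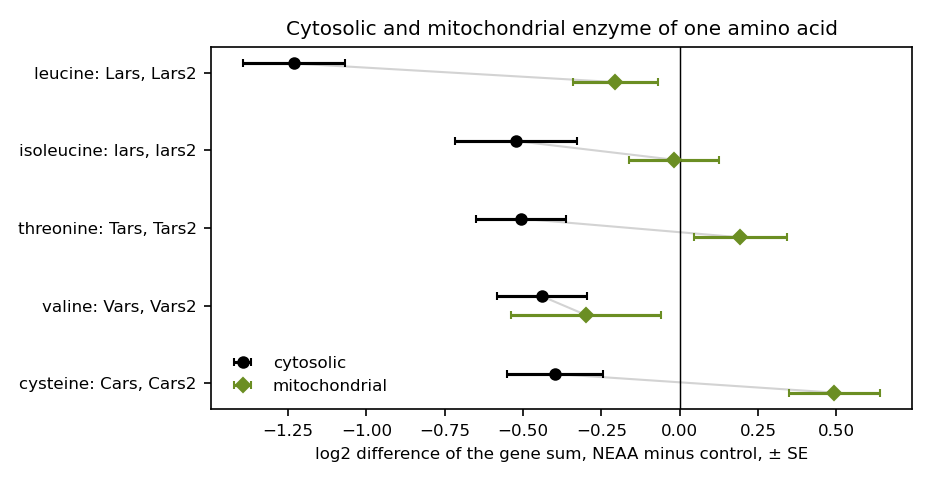
Log2 difference of the gene sum, NEAA minus control, with standard errors, for the 5 amino acids whose cytosolic (circles) and mitochondrial (diamonds) genes were both tested. The cytosolic gene lies to the left of its mitochondrial partner in all 5 pairs, by the smallest distance for valine, where the order turns round without NEAA 1.

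Setting the compartments side by side for the same amino acid gave 11 pairs with a row for both genes. In 5 of these both genes were tested, and the other 6 pairs include a gene under the filter and are not compared. Leucine had log2 differences of -1.23 (Lars) and -0.21 (Lars2), and cysteine of -0.40 (Cars) and 0.49 (Cars2). For threonine they were -0.51 (Tars) and 0.19 (Tars2), for isoleucine -0.52 (Iars) and -0.02 (Iars2), and for valine -0.44 (Vars) and -0.30 (Vars2). The cytosolic difference was the lower one in 5 of 5 pairs. The standard errors of the valine pair overlap, and without NEAA 1 the order turned round, with -0.34 for Vars and -0.61 for Vars2, so 4 of 5 pairs kept it. The summed mitochondrial level divided by the summed cytosolic level was 0.257 and 0.227 in NEAA samples against 0.154 and 0.163 in control samples, so the groups did not overlap. With 2 samples a group, the smallest p of an exact permutation test is 0.333, and the difference between compartments was not tested.

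**Figure D4:**
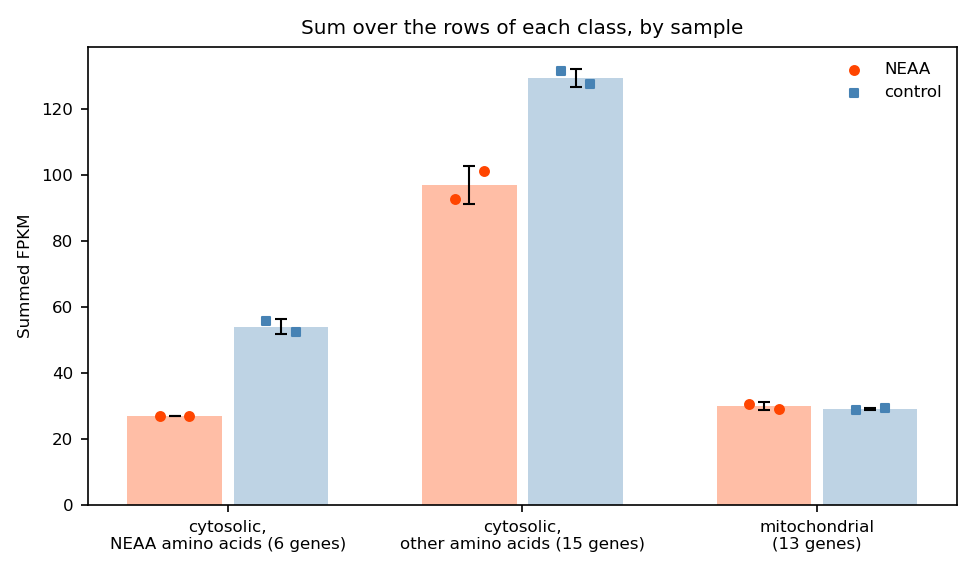
Summed FPKM of 3 classes of synthetase genes, with a point for each sample, bars at the group mean and error bars of 1 SD (n = 2). The cytosolic NEAA class has 27.0 FPKM in both NEAA samples against 55.7 and 52.5 in control samples, and the mitochondrial class is at about the same level in both groups.

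The second division, by amino acid, gave lower values with NEAA in both classes. All 7 tested gene sums of the NEAA class were negative with groups that did not overlap, and 4 fell (Aars, Eprs, Nars and Sars). In the other class 13 of 19 were negative and 3 fell (Lars, Rars and Yars). The median log2 differences were -0.78 and -0.40. Over all gene sums 55.1% were negative, 34.4% had both NEAA samples below both control samples, 4.11% were called lower and the median was -0.06. The other class also holds 7 of the 8 tested mitochondrial genes, so the classes were set side by side within the cytosolic enzymes as well. There, 4 of 6 genes of the NEAA class fell, with a median of -0.87, and 3 of 12 of the other class, with a median of -0.51, to be read against the same shares. The cytosolic NEAA class summed to 27.0 and 27.0 FPKM in NEAA samples against 55.7 and 52.5 in control samples, or 49.9% of the control mean. The cytosolic other class summed to 92.9 and 101 FPKM in NEAA against 132 and 128 in control, or 74.9%. Much of that sum was Qars, with means of 27.85 FPKM in NEAA and 24.54 in control, and Mars1, with 20.4 and 20.33. Neither mean was lower in NEAA, and the percentage and the ratio of the sums include both genes. Their part in the contrast of the classes was not tested. The first sum divided by the second was 0.291 and 0.267 in NEAA against 0.423 and 0.411 in control, groups that did not overlap. The ordering does not hold gene by gene, since Lars, of the other class, had the most negative difference, and Gars and Dars, of the NEAA class, did not pass. The difference between the classes was not tested, for the reason given for the compartments.

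As a share of the FPKM of all protein-coding genes, the cytosolic enzymes made up 0.476% and 0.510% in NEAA samples against 0.727% and 0.647% in control samples. The mitochondrial enzymes made up 0.122% and 0.116% in NEAA against 0.112% and 0.105% in control. The summed FPKM of all rows was 65720 and 60940 in NEAA and 73600 and 73380 in control. In bulk RNA, fewer cells of a type and less RNA per cell cannot be told apart. Of 14 hepatocyte markers only 3 had a row, and Alb, the albumin gene, was not among them. These 3 summed to 63.5 and 60.8 FPKM in NEAA against 24.6 and 30.4 in control. Trf and Ahsg were the 2 tested as gene sums, and both were called higher, beside 6.00% of all gene sums. The markers of other liver cells that had rows summed to between 0 and 1.69 FPKM in every sample and list, with 2 of 6 macrophage, 4 of 5 endothelial, 4 of 6 stellate and fibroblast, 1 of 5 cholangiocyte and 4 of 5 red blood cell markers measured, and 2 of the red blood cell markers at 0. The macrophage sum was 0.530 and 1.69 FPKM in NEAA against 0.829 and 0.962 in control, the endothelial sum 1.46 and 1.16 against 1.32 and 0.673, and the stellate and fibroblast sum 1.20 and 1.14 against 0.867 and 0.845. The part of these markers in the synthetase result was not tested.

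Partner genes of the synthetases were mostly not called. As said above, limma called 0 of all gene sums without control 1 and 0 without control 2, so the calls in the lists that follow also end there. The counts stand beside 4.11% called lower, 6.00% called higher and a median of -0.06 over all gene sums. Of 14 listed partners and charging accessories 6 were tested as gene sums, and 1 was called lower and 0 higher, with a median log2 difference of -0.17. The one called was Eef1e1, a scaffold protein of the multi-synthetase complex, at 1.39 and 2.03 FPKM in NEAA samples against 3.81 and 4.05 in control samples (log2 difference -0.87, SE 0.16, limma adjusted p = 0.0454). Aimp1, another scaffold, had 4.14 and 4.04 FPKM in NEAA against 7.18 and 5.20 in control (limma adjusted p = 0.157). Of 4 tested genes listed under delivery of charged tRNA (Eef1a1, Eef1d, Eef1g and Tsfm), limma called 0. At an unadjusted p under 0.05, 1 of the 4 was lower, where 16.3% of all gene sums were. That gene was Eef1a1, the elongation factor that carries charged tRNA, at 184 and 211 FPKM in NEAA against 284 and 259 in control (log2 difference -0.46, limma adjusted p = 0.113).

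Regulators of the response to uncharged tRNA gave 1 lower call and 0 higher calls among 8 tested gene sums, with a median of -0.38. It was Trib3, a pseudokinase gene induced by ATF4, at 0.756 and 0.453 FPKM in NEAA samples against 2.06 and 3.23 in control samples (log2 difference -1.17, SE 0.21, limma adjusted p = 0.0431). It passed the level filter only through the control samples. Atf4 itself had 6.85 and 5.54 FPKM in NEAA against 7.63 and 6.46 in control, with overlapping groups (log2 difference -0.16, limma adjusted p = 0.543). Among 15 tested ATF4 target genes of amino acid supply, 6 were called lower and 2 higher, with a median of -0.49, beside the same shares of all gene sums, 4.11% and 6.00%. The largest drop was that of Slc7a11, a cystine importer, with 1.33 and 1.37 FPKM in NEAA against 10.02 and 11.04 in control (log2 difference -2.29, limma adjusted p = 0.00831). The others called lower were Cth, Sqstm1, Slc7a1, Slc38a2 and Psat1, and Gpt2 and Cbs were called higher. Gpt2, an alanine aminotransferase, had 7.82 and 7.34 FPKM in NEAA against 1.91 and 1.73 in control, so the list did not move as one.

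Promoters of the enzymes were searched for a C/EBP-ATF response element, TGATGNAA, the kind of site that ATF4 binds, on both strands, from 250 bases before to 50 after the gene start (RefSeq, GRCm38.p6). The search covered 27 of the 37 genes, 13 cytosolic and 14 mitochondrial; of the 7 genes that fell it covered Eprs, Sars and Yars. The element was found in 4 of the 13 cytosolic genes (Gars, Iars, Tars and Yars) and 0 of the 14 mitochondrial genes, which include Mars2 and Rars2, while 4.51% of all 27025 genes in the table, and 3.97% of its 32851 promoters, hold it. Matches that lie before the gene start are printed to show the shared letters, on the gene's own strand, 5′ to 3′, with the match in capitals; both read as the reverse complement of the element.
Gars, plus strand, chr6:55037960-55037989: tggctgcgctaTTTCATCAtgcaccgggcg
Tars, minus strand, chr15:11399659-11399684: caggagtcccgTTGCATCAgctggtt
Of the 4 genes with the element, Yars fell, and Gars, Iars and Tars did not pass. Eprs and Sars fell without a match in this window. The E-box CACGTG was also searched, and it was found in Farsb, Iars, Tars and the mitochondrial Ears2, against 8.09% of all genes and 7.15% of all promoters. A match of letters is a description and not evidence of binding.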

How the data were processed

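RNA from primary mouse hepatocytes was sequenced as lncRNA-seq libraries, per the labels' protocols, in 2 NEAA and 2 control samples. The authors deposited 1 table of FPKM values per sample, with rows named by Ensembl gene identifier; the builds are GRCm38 and mm10 per the submitters' processing notes, and the aligner, annotation, strand setting and depth have no mention in the labels. Identifiers were matched to GENCODE M21 (19170 of 19284), where Mars1 is listed as Mars. The synthetases and the other lists were chosen with earlier results of these data known.

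Rows with a mean of at least 1 FPKM were tested as log2(FPKM + 1) with limma 3.58.1 in R 4.3.3 (lmFit, eBayes with a mean trend, 2-sided), with Benjamini-Hochberg adjustment over all 6064 rows and calls at an adjusted p under 0.05. The FPKM of a gene's rows were also summed and tested in the same way over 4700 genes. Named are all called synthetases, each gene's sum, some single rows, rows at the edge of the filter, and gene sums picked from the other lists. The procedure was tested on simulated data. Deviations of same-numbered samples had a correlation of -0.002, so the numbers were not used to pair samples. Alternatives were the pseudocount, level filter, normalization, variance model, a replicate block, each library left out, and the classing of Eprs, Gars and Kars. Rescaling to the same sum took the sum of each library without the genes Gm26917 and Gm42418. Promoters of 27 synthetase genes were searched for both motifs; 1 further promoter is not reported here.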

Additional observations from a re-analysis of the deposited data

How the results depend on the processing

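The count of 7 synthetase gene sums called lower became 3 with a mean of at least 5 FPKM, 1 without a level filter and 1 with the replicate number as a block; without each library in turn it ranged from 0 to 0. It was 5 to 7 under the other pseudocounts, normalizations and variance models. Among rows, 1 was called lower without the mean trend, in place of 0. The samples share only a number, and the block is a check of that. Over all gene sums, 193 were called lower and 282 higher; the counts were 80 and 73 with a mean of at least 5 FPKM, 63 and 181 without a filter, and 46 and 139 with the replicate block. Over all rows, 176 were called, and 0 without a filter, with the block, or without any 1 library.

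Medians of the log2 differences of rows are given for pseudocounts of 0.1 and 0.01, a mean of at least 5 FPKM and no filter, in that order. All synthetase rows (-0.38) had -0.56, -0.58, -0.13 and -0.18; cytosolic rows (-0.47) -0.69, -0.75, -0.15 and -0.33; rows of the NEAA class (-0.56) -0.92, -0.98, -1.45 and -0.36; rows of the other class (-0.35) -0.54, -0.58, -0.07 and -0.13. Quantile normalization gave -0.33 for all synthetase rows and -0.28 for the other class, rescaling to the same sum -0.31, -0.50 for the NEAA class and -0.27 for the other class, and median centring -0.34 for all. Without Eprs the NEAA class had -0.46. With a mean of at least 5 FPKM the NEAA class held only a Nars row, so -1.45 is that row's own value. The NEAA samples of that row were apart, at 7.219 and 2.915 FPKM, against 16.21 and 13.02 in control. Mitochondrial rows (-0.02) had -0.13 with a mean of at least 5 FPKM, from a Tars2 row alone. The mitochondrial median turned to 0.02 with quantile normalization, 0.04 with rescaling and 0.02 with median centring. Without 1 library the medians ranged from -0.44 to -0.34 for all rows, -0.52 to -0.45 for cytosolic, -0.14 to 0.06 for mitochondrial, -0.62 to -0.50 for the NEAA class and -0.37 to -0.31 for the other class.

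Genes near 0 changed sign. The Iars2 sum became 0.04 with rescaling and its row 0.02 with quantile normalization, 0.04 with rescaling and 0.02 with median centring; the Mars1 sum became -0.01 with median centring. Without 1 library, the Hars2 sum ranged from -0.05 (without control 2) to 0.18, the Iars2 sum and row from -0.14 to 0.10 (without NEAA 2), the Mars1 sum from -0.13 (without NEAA 1; -0.10 without control 2) to 0.13 and its row from -0.16 (without NEAA 1; -0.12 without control 1) to 0.19. The Vars2 sum ranged from -0.61 to 0.01 and its row from -0.70 to 0.08 (the positive values without NEAA 2), and the Wars sum from -1.28 to 0.28 and its row from -1.06 to 0.70 (the positive values without NEAA 1). The cause was not tested. Depth is not known from FPKM, so its limit on low genes such as Yars2 cannot be stated.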
